A study of Rattus norvegicus with 4 samples.

Results

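DNA repair genes encode the proteins that find and mend damaged DNA, and 45 of them were examined for m6A peaks in neonatal rat cardiac fibroblasts (CFs). The genes were chosen by symbol from the known repair routes and matched to their NCBI rat gene, 44 by the current symbol and 1 by a synonym. Of the 45 genes, 35 had a peak in at least 1 group, among 8729 genes with a peak in either group. m6A-seq sequences RNA fragments bound by an antibody against N6-methyladenosine (m6A) together with a sample of the input, and peaks are the stretches where bound fragments are enriched. The primary CFs came from hearts of healthy Sprague-Dawley rats at most 3 days old and were labelled WT in the control group and FTO overexpression in the other. Transfection lasted 48 h and used a plasmid without insert (Vector) or a plasmid carrying rat FTO cDNA (FTO), FTO being an enzyme that removes m6A from RNA. Each group had 1 m6A-IP library and 1 input library, and 1 list of peaks was deposited per group. There are thus no replicates, no difference given here has a replicate check, and no p-values were computed.

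m6A is set on mRNA by a methyltransferase complex and is often found in long internal exons and near stop codons. Repair routes are divided by the lesion they mend. Breaks of both strands are mended by homologous recombination from the sister chromatid or by non-homologous end joining. The MRN complex and the ATM kinase are among the proteins that recognise and signal such breaks. Crosslinks between the strands are handled by the Fanconi anaemia proteins, wrong bases by mismatch repair, bulky lesions by nucleotide excision repair and breaks of a single strand by PARP1, XRCC1 and a ligase. Translesion polymerases copy past lesions that are left. Homologous recombination and mismatch repair are most active in dividing cells, and fibroblasts of newborn hearts divide in culture.

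The lists give a length in base pairs (bp) for each peak but no height, and sequencing depth is unknown. For Fto itself, the transfected gene, 3 Vector and 9 FTO peaks were listed, and plasmid and endogenous RNA are not separated in them. Of 12 fibroblast markers, 6 had Vector peaks and 6 had FTO peaks, with 13 Vector and 12 FTO peaks in all, and the defining genes Col1a1, Col1a2, Col3a1, Dcn and Vim had none in either list. Of 8 cardiomyocyte markers, 6 had Vector peaks and 5 had FTO peaks, with 23 and 25 peaks, while Nppa and Pln had none. The 5 endothelial markers had 0 and 2 peaks, both of Tek, and the 4 macrophage markers had 12 and 9, with none on Adgre1. A peak is no measure of expression, so the markers do not settle the labelled cell type. The part of other cell types in the results below was not tested.

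The repair genes carried 113 Vector peaks and 88 FTO peaks. The FTO peaks made up 43.8% of both together (95% exact binomial interval 36.8% to 50.9%), and over all genes they made up 45.6%, which lies inside that interval. Intervals here cover counting error only. FTO peaks were fewer than Vector peaks for 21 of the 35 genes (60%), where 41.4% of all genes with a peak had fewer. They were more numerous for 7 (20%), beside 21.2% of all genes, and as many for the remaining 7. The repair genes had 3.23 Vector peaks per gene against 2.43 over all genes. Among the 940 genes with at least 10 peaks over both lists, 53.5% had fewer FTO peaks, and 5 of the 6 repair genes of that size did. The part of peak number in the share of 60% was not tested. The median difference was 1 peak fewer in the FTO list, while it was 0 over all genes. A lower number can come from less m6A, from less of the transcript, from fewer cells that express it or from lower sequencing depth. These and other sources cannot be told apart in bulk RNA from peak lists alone.

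Most differences were small. The numbers differed by 1 peak for 17 genes and by 2 for 9, and only Fancm and Rbbp8 differed by 3 or more, both with fewer FTO peaks. Equal numbers were listed for 7 of the 35 repair genes and for 3264 of all 8729 genes. How many of all genes differed by 1 or 2 peaks is not given here. Of all genes with a peak, 5.97% had at least 3 fewer FTO peaks. Peaks were in the Vector list alone for 4 repair genes, Recql4, Exo1, Polq and Polh, which is 11.4% of the 35, against 16.4% of all genes. Prkdc had a peak in the FTO list alone, as did 9.57% of all genes. The lists of lengths were the same in both groups for 5 genes, Mdc1, Nbn, Blm, Wrn and Lig4, which is 14.3% against 21% of all genes. No peak was listed in either group for 10 genes, among them Bard1, Rad54l, Atm, Fanca, Fancb, Fancc, Fancd2, Fanci and Xrcc5.

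**Figure D1:**
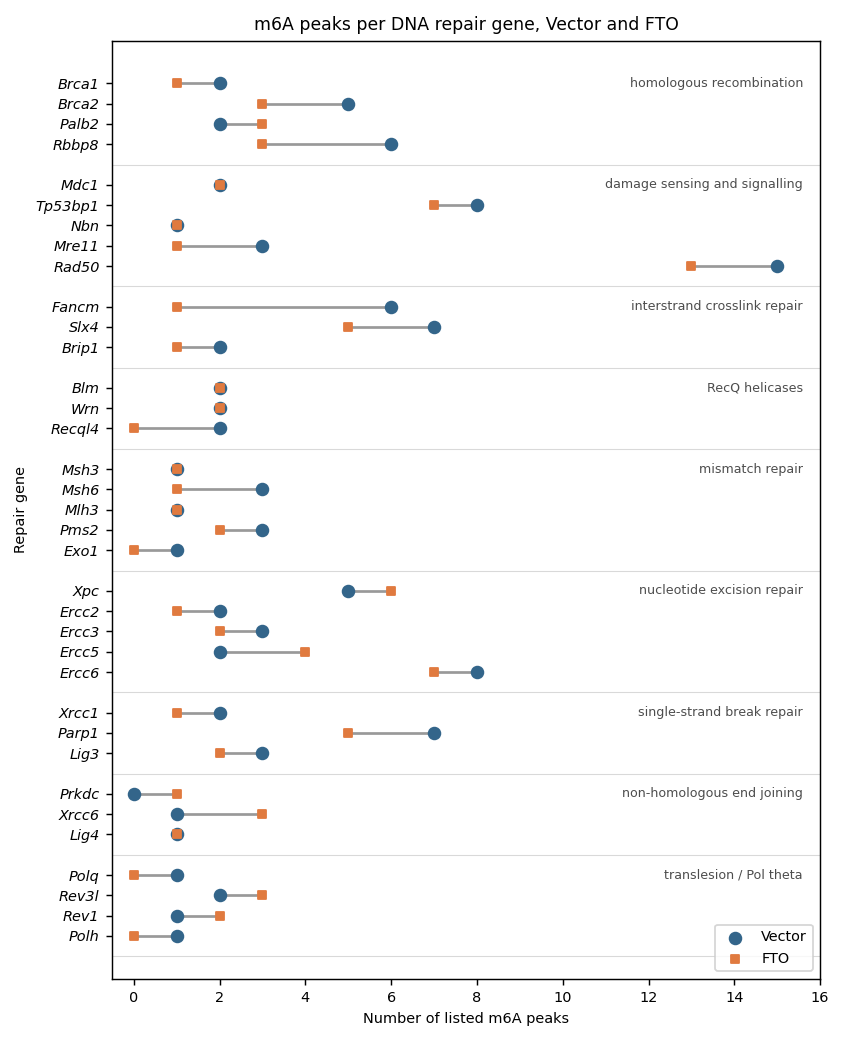
Number of listed m6A peaks (x axis) for each of the 35 repair genes with a peak (y axis, grouped by repair route), with Vector as blue circles, FTO as orange squares and a line joining them. Fancm, with 6 Vector peaks and 1 FTO peak, has the longest line, and Rad50, with 15 and 13, has the most peaks.

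Homologous recombination copies the lost sequence from the sister chromatid. Its 6 genes had 15 Vector peaks and 10 FTO peaks, with fewer FTO peaks for Brca1, Brca2 and Rbbp8, more for Palb2 and none in either list for Bard1, the partner of BRCA1, and Rad54l, a motor protein that helps strand exchange. Rbbp8 encodes CtIP, which starts the trimming of broken ends. In the order of the peak numbers, its Vector peaks were 182, 204, 886, 112, 340 and 70 bp long. Its FTO peaks were 182, 204 and 886 bp long, so that the leading 3 lengths were listed in both groups and the other 3 only with Vector.

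BRCA2 loads the recombinase onto single-stranded DNA. Brca2 had 5 Vector peaks of 50, 1095, 1978, 2697 and 693 bp and 3 FTO peaks of 89, 1095 and 771 bp. The peak of 1095 bp had the same length in both groups, whereas the pair of long neighbours of 1978 and 2697 bp had no FTO peak of the gene within 10% of their length. The summed peak length of Brca2 was 6513 bp with Vector and 1955 bp with FTO, the largest decrease of any repair gene. Brca1, which encodes a ubiquitin ligase that directs breaks to recombination, had Vector peaks of 172 and 3318 bp and an FTO peak of 3286 bp. Each group therefore had a long peak of the gene, and their lengths differed by 32 bp. Palb2, the link between BRCA1 and BRCA2, had Vector peaks of 671 and 1413 bp and FTO peaks of 671, 1405 and 177 bp, the last of which had no counterpart. The 3 genes that act as a chain thus differed in direction. Brca2 alone among them had long Vector peaks without an FTO peak of the gene within 10% of their length.

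Damage sensing and signalling had the most peaks of any route, 29 with Vector and 24 with FTO, with fewer FTO peaks for 3 genes and as many for 2. Rad50, Mre11 and Nbn encode the MRN complex, which binds broken ends and activates ATM. Rad50 had 15 Vector peaks, the highest number of any repair gene, and 13 FTO peaks. In the order of their numbers the Vector peaks were 134, 225, 128, 114, 111, 194, 190, 238, 176, 158, 183, 207, 166, 205 and 383 bp long. All 13 FTO peaks had one of these lengths and came in the same order, and the lengths without an FTO peak were 134 bp, at the start, and 205 bp, the last but one. Mre11, the nuclease of the complex, had Vector peaks of 104, 63 and 217 bp and an FTO peak of 174 bp, so none of its lengths was shared. Nbn had a peak of 442 bp in each group. The 3 subunits of one complex hence ranged from identical lengths for Nbn to no shared length for Mre11.

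Tp53bp1 encodes 53BP1, which protects broken ends from trimming, and had 8 Vector peaks and 7 FTO peaks. Its Vector peaks were 387, 216, 431, 153, 487, 1318, 125 and 185 bp long, and the FTO list held the same lengths in the same order except the last. Mdc1, the adaptor that reads phosphorylated H2AX, had peaks of 228 and 1322 bp in each group. Atm, the kinase that starts the signal, had no listed peak. Over the route, 6 of 29 Vector peaks had no partner of equal gene and length in the FTO list (20.7%, 95% Wilson interval 9.85% to 38.4%), beside 42.7% of all Vector peaks. Of the 23 shared peaks of the route 13 were on Rad50, and peaks of 1 gene are not independent. Without Rad50, left out after its values were seen, 4 of 14 had no partner (28.6%, 11.7% to 54.6%), and this interval holds the share over all Vector peaks.

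**Figure D2:**
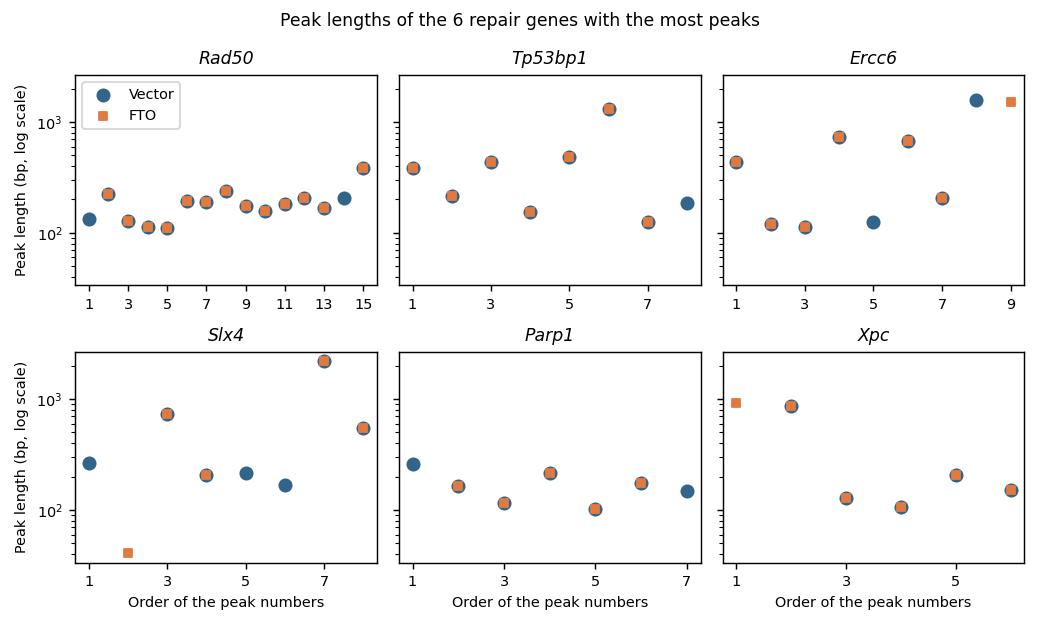
Peak length in bp on a log scale (y axis) against the order of the peak numbers (x axis) for the 6 repair genes with at least 10 peaks over both lists, aligned on equal lengths, with Vector as blue circles and FTO as orange squares. A square inside a circle is a length listed in both groups, as for 13 of the 15 Vector peaks of Rad50 and all 5 of Xpc.

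Interstrand crosslink repair had 15 Vector peaks and 7 FTO peaks on 3 of its 8 genes, and each of the 3 had fewer FTO peaks. Fancm encodes the DNA translocase that anchors the Fanconi anaemia core complex at crosslinks, and it had the largest difference of all repair genes. Its Vector peaks were 185, 207, 205, 1876, 558 and 333 bp long and its FTO peak was 558 bp long. They were assigned to 3 Ensembl transcripts, and the transcript of the 558 bp peak also carried the one of 333 bp. Slx4, the scaffold of the nucleases that unhook crosslinks, had 7 Vector peaks and 5 FTO peaks. The lengths of 727, 207, 2192 and 550 bp were shared, those of 263, 214 and 167 bp came only with Vector, and an FTO peak of 41 bp was the shortest of any repair gene. Brip1, a helicase that binds BRCA1, had Vector peaks of 828 and 327 bp and an FTO peak of 713 bp. The other genes of the route, Fanca, Fancb and Fancc of the core complex and its substrates Fancd2 and Fanci, had no listed peak. Without Fancm, the FTO share of the peaks of the route was 40% instead of 31.8% (95% exact interval 13.9% to 54.9%).

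RecQ helicases unwind structures that form at stalled forks and during recombination. Blm, mutated in Bloom syndrome, had peaks of 668 and 671 bp in each group, and Wrn, mutated in Werner syndrome, had peaks of 427 and 318 bp in each group. Recql4 was unlike them, with Vector peaks of 1065 and 750 bp and no FTO peak. The 3 helicases therefore had either all of their lengths in common or none.

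Mismatch repair removes wrongly paired bases after replication and had 9 Vector peaks and 5 FTO peaks on 5 genes. Msh6, a subunit of a complex that recognises mismatches, had Vector peaks of 355, 203 and 2536 bp and an FTO peak of 2536 bp. Pms2, an endonuclease subunit that nicks the wrong strand, had peaks of 170 and 835 bp in each group and a peak of 103 bp only with Vector. Mlh3 had 1 peak in each group, of 3297 and 3310 bp, and Msh3 had 1 of 598 and 608 bp, so both were listed with nearly the same length. Exo1, the exonuclease that removes the wrong strand, had a Vector peak of 571 bp and no FTO peak. The long Vector peaks of the route, on Msh6 and Mlh3, thus each had an FTO peak of the same gene with equal or nearly equal length.

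Nucleotide excision repair cuts out bulky lesions such as those of ultraviolet light, and its peaks were equal in number, 20 in each group. Within that total the genes differed in opposite directions, with fewer FTO peaks for Ercc2, Ercc3 and Ercc6 and more for Xpc and Ercc5. Ercc6 encodes CSB, which couples repair to transcription. It had 8 Vector peaks and 7 FTO peaks, with shared lengths of 432, 121, 112, 727, 675 and 205 bp, a final peak of 1581 bp with Vector and 1521 bp with FTO, and a Vector peak of 126 bp without a counterpart. Xpc, the damage sensor, had Vector peaks of 873, 128, 107, 205 and 153 bp, and its FTO list held these 5 lengths and a further peak of 927 bp. Ercc5, the nuclease XPG, had Vector peaks of 1068 and 647 bp and these lengths with others of 208 and 242 bp in the FTO list.

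Ercc2 and Ercc3 encode XPD and XPB, the helicases of the transcription factor TFIIH. Ercc2 had Vector peaks of 102 and 1320 bp and an FTO peak of 1338 bp. Ercc3 had Vector peaks of 206, 153 and 370 bp and FTO peaks of 153 and 370 bp. In both helicase genes 1 Vector peak lacked a counterpart in the FTO list, that of 102 bp for Ercc2 and that of 206 bp for Ercc3.

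Repair of single-strand breaks had 12 Vector peaks and 8 FTO peaks, with fewer FTO peaks for each of its 3 genes. Parp1 encodes the polymerase that marks breaks with poly(ADP-ribose). Its Vector peaks were 260, 166, 116, 215, 103, 177 and 148 bp long, and the FTO list held the 5 between the outer ones with unchanged lengths. Xrcc1, the scaffold of the route, had Vector peaks of 137 and 91 bp and an FTO peak of 259 bp. Its summed peak length therefore was higher in the FTO group, 259 bp against 228 bp, although the number of peaks was lower. Lig3, the ligase bound to XRCC1, shared a peak of 554 bp and had further Vector peaks of 116 and 124 bp and a further FTO peak of 144 bp. This route had the shortest peaks, with medians of 142.5 bp for Vector and 171.5 bp for FTO.

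Non-homologous end joining ligates broken ends without a template and was the one route with more FTO peaks than Vector peaks, 5 against 2. Xrcc6, which encodes Ku70, had a Vector peak of 355 bp and FTO peaks of 394, 101 and 355 bp. Prkdc, the catalytic subunit of the DNA-dependent protein kinase, had no Vector peak and an FTO peak of 404 bp. Lig4, the ligase of the route, had a peak of 2939 bp in each group, and Xrcc5, which encodes Ku80, had none. The FTO share of 71.4% rests on 7 peaks, and its 95% exact interval of 29% to 96.3% holds the share over all genes.

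Translesion synthesis and polymerase theta had 5 peaks in each group, again with genes in opposite directions. Rev3l, the catalytic subunit of polymerase zeta, had peaks of 4147 and 932 bp in each group and an FTO peak of 245 bp besides. The peak of 4147 bp was the longest of any repair gene. Rev1, the scaffold of the translesion polymerases, had a peak of 704 bp in each group and an FTO peak of 108 bp. Polq, which encodes polymerase theta and joins ends by short repeats, had a Vector peak of 2987 bp and no FTO peak, and Polh, which copies past ultraviolet lesions, had a Vector peak of 305 bp and no FTO peak. Rev1 and Rev3l, whose proteins work together, thus each had 1 more peak with FTO, while Polq and Polh had none.

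**Figure D3:**
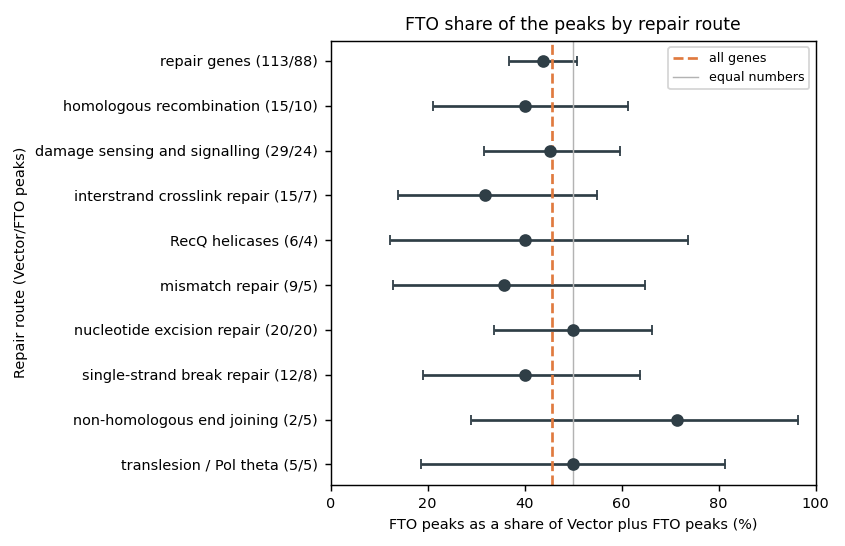
FTO peaks as a percentage of Vector plus FTO peaks (x axis) for all repair genes and for each route (y axis, with the numbers of Vector and FTO peaks), with 95% exact binomial intervals as bars. The interval of every route holds the 45.6% of all genes (dashed line), from 31.8% for interstrand crosslink repair to 71.4% for non-homologous end joining.

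The interval of each of the 9 routes held the FTO share over all genes. These intervals treat the peaks of a gene as independent, which they are not, so they cannot decide whether a route differed from all genes. The shares ran from 31.8% for interstrand crosslink repair, 35.7% for mismatch repair and 40% for homologous recombination, RecQ helicases and single-strand break repair to 45.3% for damage sensing, 50% for nucleotide excision repair and for the translesion genes, and 71.4% for end joining.

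The median peak length of the repair genes was 228 bp for Vector and 288.5 bp for FTO, against 203 bp and 228 bp over all peaks. The FTO median was the higher one both in the repair genes and over all peaks. Peaks of at least 1000 bp made up 15.9% of the Vector peaks of repair genes (95% Wilson interval 10.3% to 23.8%) and 14.8% of the FTO peaks (8.84% to 23.7%), near the 14.2% and 16.7% over all peaks. By route the Vector medians ran from 1647 bp for end joining, 932 bp for the translesion genes, 671 bp for homologous recombination, 669.5 bp for RecQ helicases and 571 bp for mismatch repair to 327 bp for crosslink repair, 205.5 bp for nucleotide excision repair, 194 bp for damage sensing and 142.5 bp for single-strand breaks. The FTO medians were 394, 704, 721, 547.5, 835, 558, 306, 200.5 and 171.5 bp in that order. End joining thus had the highest Vector median but not the highest FTO median, and these medians rest on 2 to 29 peaks each.

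**Figure D4:**
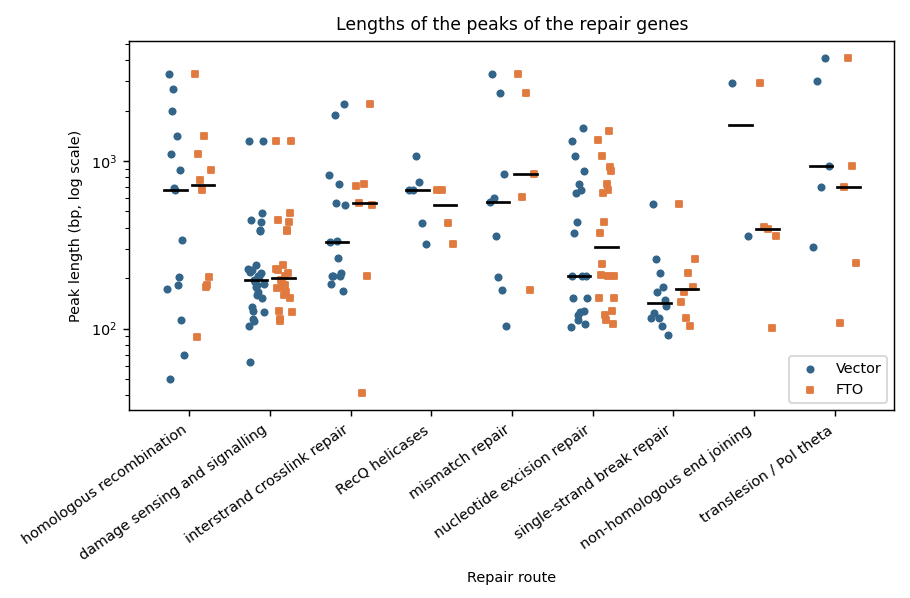
Length in bp on a log scale (y axis) of each peak of the repair genes by repair route (x axis), with Vector as blue circles, FTO as orange squares and the median as a black line. Single-strand break repair has the lowest medians, 142.5 bp with Vector and 171.5 bp with FTO, and the longest peak is the 4147 bp peak of Rev3l in both groups.

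The 18 long Vector peaks, of at least 1000 bp, lay on 16 repair genes. For 8 of them the FTO list held a peak of the same gene with exactly this length, on Brca2, Mdc1, Tp53bp1, Slx4, Msh6, Ercc5, Lig4 and Rev3l. For 5 more, on Brca1, Palb2, Mlh3, Ercc2 and Ercc6, it held a peak that differed by 8 to 60 bp. The remaining 5 had no FTO peak of the gene within 10% of their length, and these were 2 peaks of Brca2 and 1 each of Fancm, Recql4 and Polq. The 8 of equal length are 44.4% of the 18, beside 52.6% of the long Vector peaks of all genes, and the 13 within 10% are 72.2%, beside 73.6%. All 13 long FTO peaks thus had a long Vector peak of the same gene beside them.

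The same 4 genes carried most of the change in summed length. The summed length of all repair gene peaks was 67664 bp for Vector and 53328 bp for FTO, a difference of -14336 bp. Brca2 with -4558 bp, Polq with -2987 bp, Fancm with -2806 bp and Recql4 with -1815 bp together made -12166 bp of it. In the other 31 genes with a peak the sums were 52985 bp and 50815 bp. The summed length was lower in the FTO group for 20 genes (57.1%), higher for 10 (28.6%) and equal for 5, beside 47.2% lower and 31.8% higher over all genes. The largest increase was that of Xpc, from 1466 bp to 2393 bp. The 4 genes were singled out after their values were seen, for the size of their decrease.

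**Figure D5:**
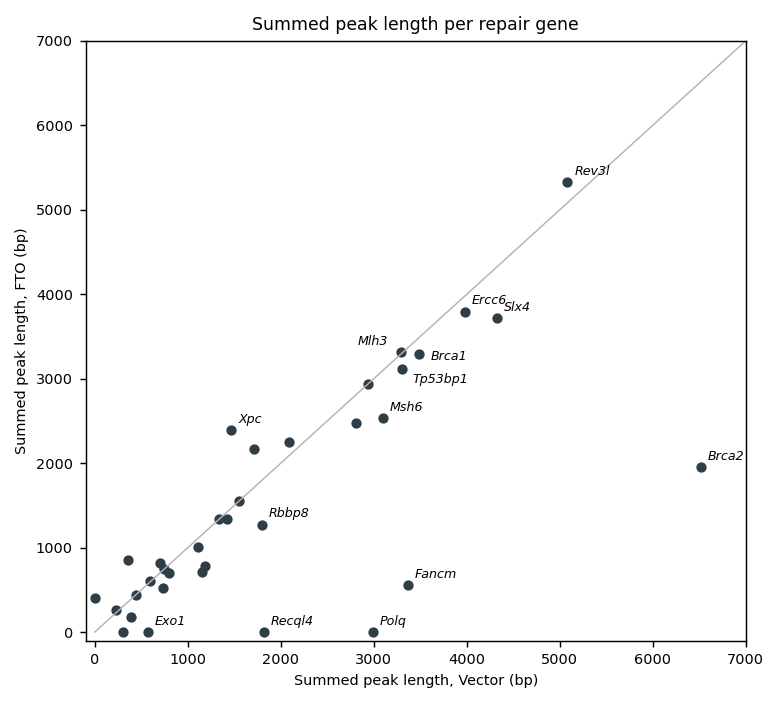
Summed length in bp of the peaks of each of the 35 repair genes in the FTO group (y axis) against the Vector group (x axis), 1 point per gene, with the line of equal sums in grey. Brca2 (6513 and 1955 bp), Fancm (3364 and 558 bp), Polq (2987 and 0 bp) and Recql4 (1815 and 0 bp) stand far below the line.

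Peaks were also paired 1 to 1 between the lists by equal gene and length. Of the 113 Vector peaks of repair genes, 66 had such a partner and 47 had none, which is 41.6% (95% Wilson interval 32.9% to 50.8%) and close to the 42.7% over all genes. Of the 88 FTO peaks, 22 had none, which is 25% (17.1% to 35%) against 31.6%. In all 66 pairs the partners also came in the same order along the peak numbers of their gene, as in 99.9% of the pairs of all genes. Every FTO length of a gene was also a Vector length for 13 of the 30 genes with peaks in both lists (43.3%), beside 48.5% of all such genes. The Vector peaks without a partner had a median length of 214 bp against 278 bp for the paired ones, and the FTO peaks without a partner had a median of 326.5 bp. Over all genes the medians were 191, 211 and 294 bp, in the same order.

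A wider set of 126 further genes, assigned broadly to the same routes, was counted in the same way, and 69 of them had a peak in either list. They had 127 Vector peaks and 89 FTO peaks, with fewer FTO peaks for 35 genes (50.7%), as many for 22 and more for 12 (17.4%). Over all genes 41.4% had fewer and 21.2% had more. Only 2 of them differed by 3 or more peaks. Rad51ap1, which promotes strand exchange, had Vector peaks of 345, 162, 150 and 110 bp and no FTO peak, and Gtf2h1, a subunit of TFIIH, had Vector peaks of 116, 93 and 973 bp and no FTO peak. By route, the Vector and FTO peaks of these genes numbered 27 and 16 for homologous recombination, 22 and 21 for damage sensing and 15 and 10 for crosslink repair. They numbered 7 and 6 for RecQ helicases, 2 and 1 for mismatch repair, 17 and 7 for nucleotide excision repair and 16 and 12 for single-strand breaks. End joining had 6 and 7, and translesion synthesis had 15 and 9. As assigned here, nucleotide excision repair and translesion synthesis had equal numbers in the genes described above and fewer FTO peaks in the further ones. The further translesion genes were not polymerases alone and took in Zranb3, Smarcal1, Mgmt, Alkbh2 and Alkbh3. Likewise, Ung, Nthl1, Tdg and Mbd4 were counted under single-strand breaks, and Mdm2 and Cdkn1a under damage sensing. The 2 sets of a route are therefore not alike in kind. Of the 127 Vector peaks, 57.5% lacked a partner of equal gene and length in the FTO list (95% Wilson interval 48.8% to 65.7%). This share was higher than the 41.6% of the 45 genes and the 42.7% over all genes. The differences between these shares were not tested because peaks of 1 gene are not independent.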

How the data were processed

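m6A-seq was performed on neonatal rat CFs of the Vector and FTO groups. Per the labels, reads were trimmed with cutadapt 1.9.3 and aligned with HISAT2 2.0.4, and the build was rn6. The peak names carry the prefix MACS, and the peak caller's settings and threshold are not given in the sources used here. Each deposited list gives a peak name, the length in bp (not normalized), an Ensembl transcript and mostly an NCBI gene ID. The lists held 21249 and 17796 peaks. Those without a gene ID, 248 and 213, were kept under their transcript.

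The members, gene lists and alternatives were chosen with earlier results of these data known. Symbols were matched to gene IDs through the RefSeq table of GRCr8, from which no coordinates were used. Neighbouring genes on a chromosome followed its order in 95.2% of steps along the peak numbers in each list. The numbers were therefore taken as the order of a gene's peaks, although the order within genes was not checked. The strand was not used, so this order need not run along the transcript. Shares have 95% Wilson or exact binomial intervals. Without replicates no test was possible. Lengths are given in full for genes that differed by 3 or more peaks, had peaks in 1 list alone or had identical lists of 3 or more peaks, and for others named as examples after their values were seen. One gene without a peak is not reported here by name. No sequence of the files' build was used, and the pairing was checked on simulated lists. Python 3.11.15, pandas 2.3.3, numpy 2.4.6, scipy 1.17.1 and matplotlib 3.10.9 were used.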

Additional observations from a re-analysis of the deposited data

How the results depend on the processing

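Of 87 values under alternative settings, 81 stayed within 1.5 times the count or median or inside the 95% interval of the share. Of these, 54 are shares of single routes with wide intervals, which says little of their stability, as the FTO share of end joining was 71.4% of peaks and 56% of summed length. With peaks of at least 200 bp, 15 repair genes had as many FTO as Vector peaks instead of 7, and 14 had fewer instead of 21. Over all genes 53.8% had as many at that setting, where 3264 of 8729 did as listed. Of the further repair genes 19 had fewer instead of 35, while over all genes the share with fewer was 27.5% instead of 41.4%. How many of the further genes kept a peak at that setting is not given here, so the 19 cannot be compared with this share. After scaling FTO numbers up by 1.19, the quotient of both list sizes, 17 repair genes had more FTO peaks instead of 7, of which 7 had equal numbers before and 3, Rad50, Tp53bp1 and Ercc6, had fewer. Scaling turns every pair of equal numbers into more FTO peaks, in any gene, so this rise is no trait of the repair genes. The share over all genes after scaling is not given here. Leaving out the member with the largest difference of each route (of tied ones, that with the most Vector peaks) left 4 genes with more, 15 with fewer and 7 with as many. The genes left out were picked by the very difference that is counted. Ercc5, Xrcc6 and Rev3l were among them and had more FTO peaks, so the fall from 7 to 4 followed from the choice. Where a partner could be any peak of the same gene, 30.1% of the Vector peaks of repair genes were unpaired instead of 41.6%. This looser rule can only lower the share in any set of genes, and its value over all genes is not given here. Without the 4 genes with the largest decrease in summed length, an alternative added after the data were seen, FTO made up 49% of the summed length instead of 44.1%, a change that this choice of genes favours. Equal lengths are no proof of equal positions. No paired analysis was possible because there are no replicates, and none could be left out. Depth is unknown and limits what the peak numbers can show.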

Other observations

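Neither list numbers its peaks without gaps. The highest peak number was 59557 for the 21249 listed Vector peaks and 52060 for the 17796 listed FTO peaks. Gaps were therefore general in both lists, and missing numbers also fell between the listed peaks of repair genes. Between the lowest and highest number of a gene, 58 numbers were missing for Vector, over 17 repair genes, and 27 for FTO, over 10. The repair genes also had more Vector than FTO peaks, and the matching counts over all genes are not given here. Wrn had the same 2 lengths in both groups, with 6 missing numbers between them for Vector and 5 for FTO. Rbbp8 had 7 missing numbers among its 6 Vector peaks and 1 among its 3 FTO peaks. Tp53bp1 had 6 missing numbers in each list. What the missing numbers stood for is not given in the sources used here.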
